A study of Mus musculus with 8 samples.

Results

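Pyruvate made in the cytosol enters the mitochondrial matrix and is turned into acetyl-CoA there, and the 10 genes described here encode most of that entry step: Mpc1 and Mpc2 of the pyruvate carrier, Pdha1, Pdhb and Dlat of the pyruvate dehydrogenase complex, the kinases Pdk1, Pdk2, Pdk3 and Pdk4, and the phosphatase Pdp1. The genes were chosen by name, as the rows of the deposited count table that carry these symbols, and all 10 were found among 53819 symbols. All 10 were counted deeply enough to be tested, among 14070 genes tested. They were measured in messenger RNA from the quadriceps muscle of wild-type C57BL/6J mice, 8 weeks old at the start, which served a study of cachexia (muscle wasting) in a head and neck cancer model. The tumor group (4 mice) was injected with 500000 B0092 cells, a head and neck squamous carcinoma line, under the skin near the nape of the neck, and the control group (4 mice) with the saline vehicle. Muscle was collected on day 36, at a weight loss of about 10%. The model rests on a single tumor line, and the labels give 4 libraries for the 4 mice of each group.

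The carrier is a complex of MPC1 and MPC2 in the inner mitochondrial membrane, and each protein is unstable without its partner. In the dehydrogenase complex, E1 (subunits PDHA1 and PDHB) removes carbon dioxide from pyruvate, E2 (DLAT) passes the acetyl group to coenzyme A on a lipoyl arm, and E3 (DLD) reoxidises that arm. The kinases switch the complex off by phosphorylating PDHA1, and the phosphatases switch it on again. In skeletal muscle PDK2 and PDK4 are known as the main kinases, and Pdk4 is known to rise with fasting and glucocorticoids and to spare glucose.

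Dlat, Mpc2 and Pdhb fell in tumor-bearing mice, and none of the 10 rose. Dlat fell 2.35-fold, Mpc2 1.91-fold and Pdhb 1.68-fold. Pdha1 had a log2 fold change of -0.77, just outside the threshold. No kinase gene passed the test: Pdk2 had a log2 fold change of 0.21 and Pdk4 of 1.13, with 3 of 4 tumor libraries above all controls. Per unit of Pdha1 transcript the 4 tumor libraries held 3.84 to 7.66 kinase transcripts, against 1.79 to 2.77 in the controls. This ratio was chosen after its parts were seen and was not tested, and the lower Pdha1 level enters it.

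Libraries held 28436205 to 36139462 counts, and 3 of them stood apart. Of the summed Myh1, Myh2, Myh4 and Myh7 levels, Myh4, the myosin of the fastest fibres, made up 64.6% in control library 4 and 80.3% in tumor library 2, against 88.5% to 98.9% in the other 6. Tumor library 4 had the largest scaling factor (1.225, others 0.896 to 1.015) and the lowest sum of 9 muscle fibre markers, 68300 CPM (counts per 1000000, scaled by TMM factors), against 120000 to 156000 in the other libraries. Of these 9 genes 3 were lower by edgeR and 1 each by DESeq2 and limma-voom, and 2 of the 3, Tnnt1 and Myh7 of slow fibres, were highest in control library 4 (685 and 2160 CPM, other controls at most 51.8 and 119). As a sum the fibre markers were abundant in all libraries, as the tissue label says. The slow-fibre genes Tnnt1 and Myh7 were low in some libraries. They stood at 0.637 and 1.48 CPM in control library 3 and at 0.459 and 0.115 CPM in tumor library 4. In bulk muscle, fewer cells of a type and less RNA per cell cannot be told apart. Summed markers of other cell types overlapped between groups for adipocytes (17.3 to 849 CPM in controls, 36 to 746 in tumor mice, 0 of 7 genes called), leukocytes (13.4 to 24 against 10.2 to 50.9, with 1 of 5 higher) and erythroid cells (78.9 to 168 against 32.3 to 194). They were lower in all tumor libraries for endothelial cells (121 to 184 against 60.9 to 107 CPM, with 3 of 5 genes lower) and fibroblasts (394 to 560 against 166 to 362, with 1 of 5 lower). The fibroblast difference lay in the collagen genes Col1a1 (96.1 ± 21.9 against 31.8 ± 20.9 CPM) and Col3a1 (192 ± 44.5 against 46.5 ± 32.5), while Dcn (151 ± 14.8 against 155 ± 29.3) and Pdgfra (15.2 ± 1.89 against 16.6 ± 3.2) overlapped between groups. Squamous epithelial markers summed to 7.48 to 10.4 CPM in controls and 16.1 to 37.3 in tumor mice, most of it Trp63 (8.17 ± 1.43 against 24.6 ± 8.86), while Krt5, Krt14, Krt6a and Dsg3 were at 0 counts in all 8 libraries. For the marker counts above, 8.73% of all genes tested were lower and 11.0% higher. The part of these cell types in the results below was not tested.

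RefSeq promoter windows were matched for 9 of the 10 genes (12 start sites, build GRCm38.p6, Pdp1 not matched). The 3 genes that fell and Pdk4 are shown, from 250 bases before to 50 after the annotated start: the first because they carry the fall, Pdk4 because its tumor libraries spread widely. Capitals mark CCAAT (or ATTGG, its complement), GGGCGG (or CCGCCC) and ATAAAA, core promoter motifs chosen after the windows were seen.
Dlat (chr9:50659731-50660030, minus strand): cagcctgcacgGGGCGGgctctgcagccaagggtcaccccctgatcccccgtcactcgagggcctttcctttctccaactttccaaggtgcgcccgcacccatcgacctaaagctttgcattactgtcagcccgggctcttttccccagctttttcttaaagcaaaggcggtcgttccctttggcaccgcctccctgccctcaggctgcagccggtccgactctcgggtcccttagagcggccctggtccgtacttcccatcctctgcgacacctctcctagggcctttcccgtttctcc
Mpc2 (chr1:165461010-165461309, plus strand): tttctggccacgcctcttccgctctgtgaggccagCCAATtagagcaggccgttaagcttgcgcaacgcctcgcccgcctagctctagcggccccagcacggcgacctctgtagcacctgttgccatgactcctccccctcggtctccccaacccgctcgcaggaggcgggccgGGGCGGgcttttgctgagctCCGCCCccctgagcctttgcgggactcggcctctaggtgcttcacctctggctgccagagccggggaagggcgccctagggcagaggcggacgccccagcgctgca
Pdhb (chr14:8172943-8173242, minus strand): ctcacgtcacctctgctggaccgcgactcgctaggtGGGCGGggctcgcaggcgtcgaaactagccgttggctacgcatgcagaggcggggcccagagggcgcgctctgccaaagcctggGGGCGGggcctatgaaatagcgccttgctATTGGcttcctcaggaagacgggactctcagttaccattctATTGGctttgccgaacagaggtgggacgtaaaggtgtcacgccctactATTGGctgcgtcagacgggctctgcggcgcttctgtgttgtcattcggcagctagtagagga
Pdk4 (chr6:5496229-5496528, minus strand): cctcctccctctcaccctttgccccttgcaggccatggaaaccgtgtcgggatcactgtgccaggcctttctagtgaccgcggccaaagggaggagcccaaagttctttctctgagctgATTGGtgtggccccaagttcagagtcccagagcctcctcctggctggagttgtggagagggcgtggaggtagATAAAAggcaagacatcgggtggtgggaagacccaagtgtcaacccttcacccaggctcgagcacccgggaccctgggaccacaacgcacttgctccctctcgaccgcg
Pdk4 held ATAAAA from -59 to -54, a match found in 18.5% of 32851 promoter windows and in none of the other 11 windows of these genes. GGGCGG, found in 35.7% of all windows, was present in the Dlat, Mpc2 and Pdhb windows and absent from that of Pdk4. It was also present in windows of Mpc1 (log2 fold change -0.21), Pdk1 (-0.35) and Pdk3 (-0.54), which were not called. Pdha1 (-0.77) and Pdk2 (0.21) did not hold it. Except for Pdha1, genes with GGGCGG had negative log2 fold changes and genes without it positive ones. The motif was chosen after the windows were seen, most of these genes were not called, and a link was not tested. Pdhb held CCAAT 3 times and Mpc2 and Pdk4 once each (37.4% of all windows), and Dlat did not hold it. The windows of Pdhb and Mpc2 each held 24 CpG pairs, that of Dlat 18 and that of Pdk4 12. Both strands were also searched for AAGGTCA, the core element of estrogen-related receptors (4.72% of all windows), for TGTTTAC of FOXO factors (3.65%), for AGAACA of the glucocorticoid receptor (19%) and for the PPAR direct repeat, 2 copies of AGGTCA with 1 base between (0.0396%). None of these was in the 4 windows shown. Among all 12, AGAACA matched at 2 places in the window of the second Pdk1 start. A match describes letters in this window and is not a binding site.

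Of the 10 genes, 0 rose and 3 fell in the quasi-likelihood test of edgeR (Benjamini-Hochberg adjusted p over all genes under 0.05). Of all genes tested 19.8% were called, 11.0% higher and 8.73% lower. At an unadjusted p under 0.05, 0 rose and 4 fell, and DESeq2 and limma-voom each called 0 higher and 4 lower, Pdha1 being the added gene. Over all 14070 genes DESeq2 called 1931 higher and 1728 lower, and limma-voom 1483 and 1287. The shares of 11.0% and 8.73%, here and for the lists below, are those of the adjusted edgeR test. The share of all genes at an unadjusted p under 0.05 is not given here, so the unadjusted counts have no background. The groups did not overlap for the 3 genes that fell, with tumor below control, where 11.5% of all genes did the same. For 0 of the 10 did all tumor values lie above all control values (13.5% of all genes). The median log2 fold change of the 10 was -0.44, beside 0 over all genes tested (quartiles -0.4 and 0.34). The count of genes that fell was 2 without control library 1 or without tumor library 3, and 4 without control library 4 and tumor library 2 together.

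**Figure D1:**
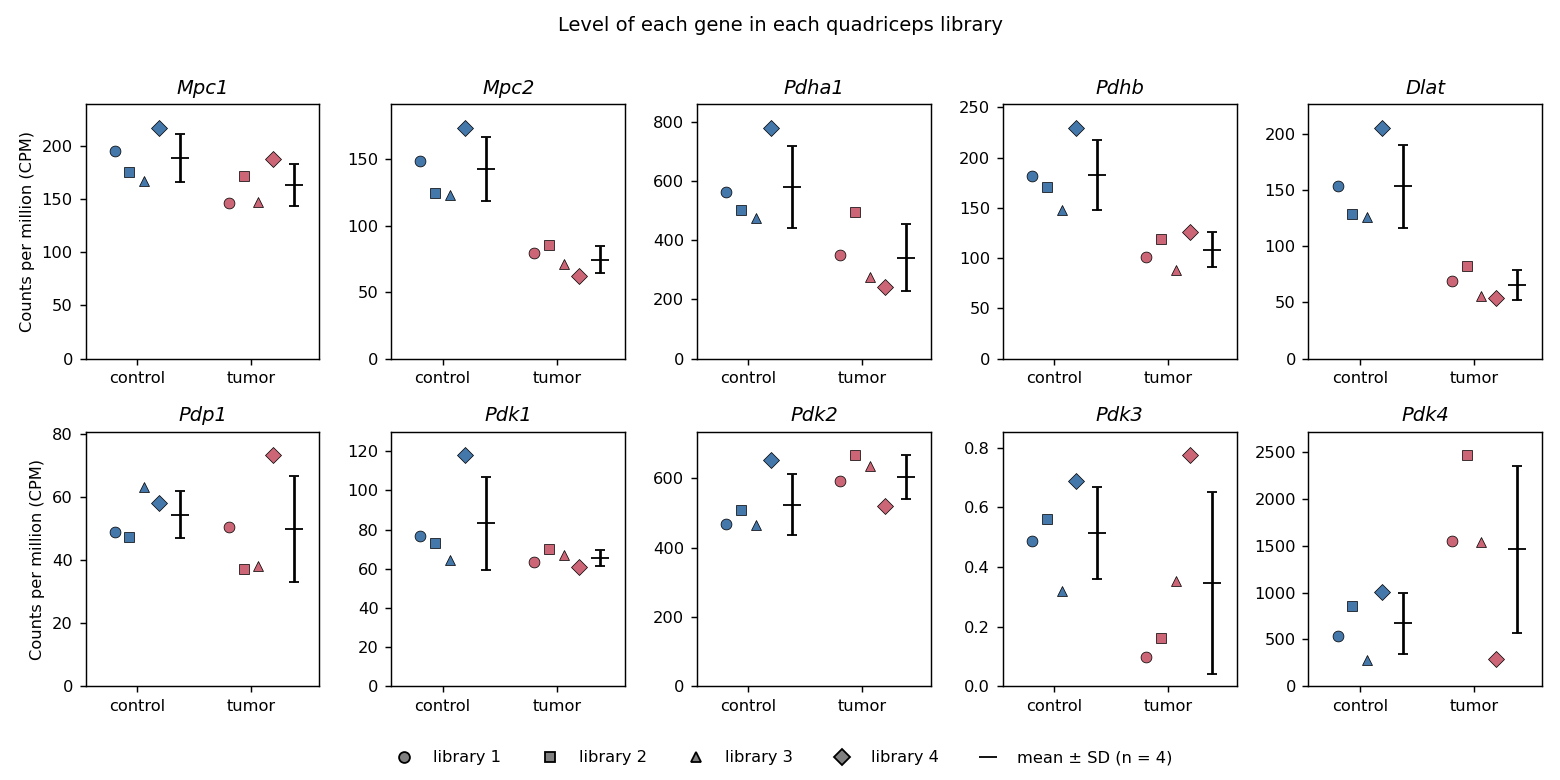
Level of each of the 10 genes in CPM (vertical axes, each starting at 0) in 4 control and 4 tumor libraries. Symbols give the library number and bars the mean ± SD. The tumor points of Mpc2, Pdhb and Dlat lie below all control points, while Pdk4 spreads from 295 to 2470 CPM among tumor libraries.

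The 2 carrier genes differed in size of change. Mpc2 stood at 149, 125, 123 and 174 CPM in control libraries 1 to 4 and at 79.8, 85.7, 70.9 and 61.9 CPM in tumor libraries 1 to 4. All tumor values were below all controls. The log2 fold change was -0.94 ± 0.16 (SE), with an adjusted p of 0.0054 (edgeR), and it ranged from -1.04 to -0.82 over all alternative analyses. Mpc1 stood at 195, 175, 167 and 217 CPM in controls and at 146, 171, 147 and 187 CPM in tumor mice. These groups overlapped, since tumor libraries 2 and 4 lay within the control range. The log2 fold change of Mpc1 was -0.21 ± 0.14 (95% interval -0.52 to 0.09, adjusted p = 0.3, edgeR), so a fall larger than 0.52 on the log2 scale lies outside its interval. Mpc1 counts were not whole numbers in any of the 8 libraries, which is how estimated counts look where reads also match another gene. The pseudogene Mpc1-ps was listed with 347 to 499 counts per library, so the Mpc1 level is less certain than that of Mpc2.

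Within a library, the ratio of Mpc1 to Mpc2 does not depend on library scaling. The log2 ratio was 0.39, 0.48, 0.45 and 0.32 in control libraries 1 to 4 and 0.87, 0.99, 1.05 and 1.59 in tumor libraries 1 to 4. All tumor ratios were above all control ratios. Control ratios averaged 0.41 ± 0.07 and tumor ratios 1.13 ± 0.32 (SD, n = 4), with a two-sided exact permutation p of 0.0286, the smallest that 4 against 4 allows. Adjusted over the 4 ratios computed, the exact permutation p was 0.0571, which does not pass 0.05.

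The E1 genes had similar fold changes and differed in spread. Pdhb, the beta subunit, stood at 182, 171, 148 and 230 CPM in controls and at 101, 119, 87.7 and 126 CPM in tumor mice. The groups did not overlap, the highest tumor library being library 4 and the lowest control library 3. Its log2 fold change was -0.75 ± 0.17 (SE, adjusted p = 0.0164, edgeR). Leaving out control library 1 gave a log2 fold change of -0.75 (edgeR adjusted p = 0.0519), and leaving out tumor library 3 gave -0.66 (0.0584). Those fits called 1110 and 1190 genes in all, against 2781 with all 8 libraries, so calls were lost across all genes and not for Pdhb alone. Pdhb, like Mpc1, had counts that were not whole in all 8 libraries, and the other 8 genes had at most 1 such library.

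Pdha1, the alpha subunit that carries the regulatory phosphorylation sites, stood at 563, 502, 476 and 780 CPM in controls and at 348, 496, 274 and 243 CPM in tumor mice. Tumor library 2 lay within the control range, and the other 3 lay below it. Its change on the log2 scale was -0.77 ± 0.25 (SE), with a 95% interval from -1.33 to -0.21 and an adjusted p of 0.0554 (edgeR). Pdha1 passed without tumor library 2 (log2 fold change -1.04, adjusted p = 0.0148) and without control library 4 and tumor library 2 together (-0.84, adjusted p = 0.0137). The log2 ratio of Pdha1 to Pdhb averaged 1.66 ± 0.09 among controls and 1.6 ± 0.47 among tumor mice (SD, exact permutation p = 0.914, also 0.914 adjusted over the 4 ratios). Tumor library 4 had the lowest ratio (0.94) and tumor library 2 the highest (2.05), so the spread among tumor mice was wider than among controls (1.55 to 1.76).

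Dlat, the E2 core of the complex, had the largest fall of the 10 genes. It stood at 154, 129, 126 and 206 CPM in controls and at 69, 82.6, 56.1 and 54.2 CPM in tumor mice, so that the highest tumor library was well below the lowest control. That is -1.23 ± 0.20 (SE) on the log2 scale, with an adjusted p of 0.005 (edgeR). The call held in all 18 alternative analyses, with log2 fold changes from -1.40 to -1.06. The log2 ratio of Dlat to Pdha1 was -1.87, -1.95, -1.92 and -1.91 in controls and -2.33, -2.58, -2.28 and -2.15 in tumor mice. The groups did not overlap, with a difference of -0.42 (exact permutation p = 0.0286, and 0.0571 adjusted over the 4 ratios).

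**Figure D2:**
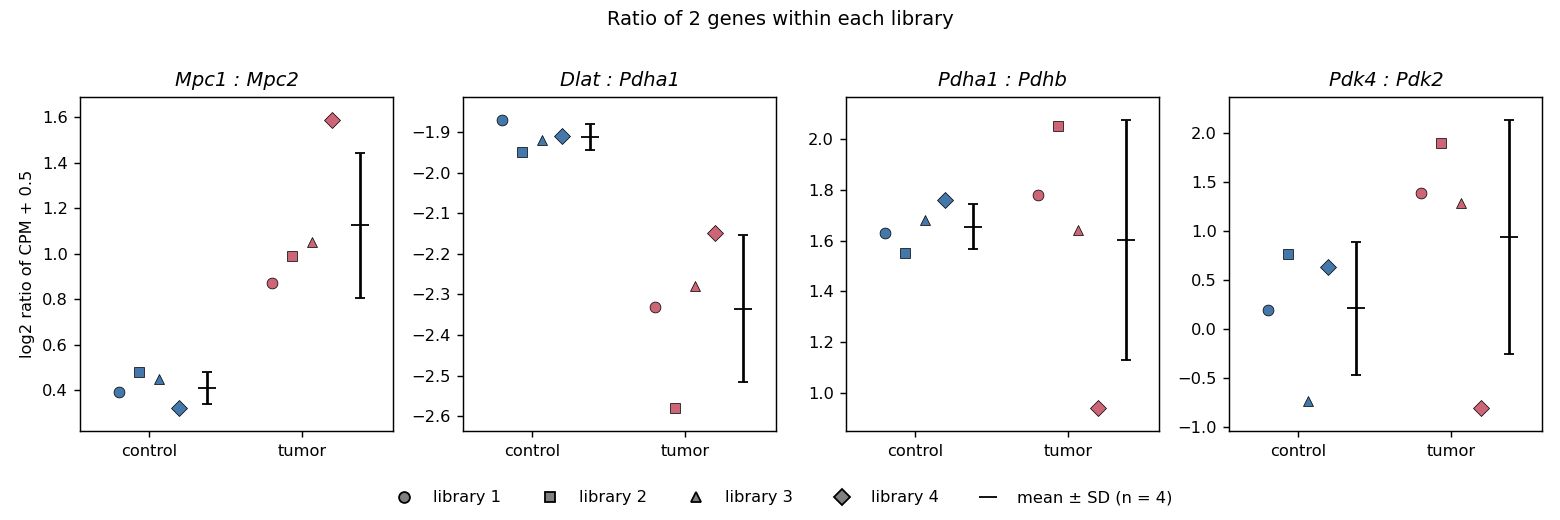
Log2 ratio of 2 genes within each library (CPM + 0.5, vertical axes that do not start at 0) in 4 control and 4 tumor libraries, with mean ± SD. The Mpc1 to Mpc2 and Dlat to Pdha1 ratios do not overlap between groups, and the Pdha1 to Pdhb and Pdk4 to Pdk2 ratios do.

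Among the kinases, Pdk4 and Pdk2 made up nearly all transcripts and the other 2 were minor. Levels of different genes are compared here as CPM per kb of the longest protein-coding transcript (GENCODE M21). On that scale Pdk2 stood at 233 ± 39.1 in controls and 269 ± 28.5 in tumor mice, and Pdk4 at 192 ± 94.5 and 420 ± 256 (SD, n = 4). Pdk1 stood at 16 ± 4.6 and 12.6 ± 0.78, and Pdk3 at 0.243 ± 0.0731 and 0.164 ± 0.144. Control levels fell in the order Pdk2, Pdha1 (204 ± 48.5), Mpc1 (196 ± 23.4), Pdk4, Mpc2 (139 ± 23.5), Pdhb (121 ± 22.7), Dlat (38.1 ± 9.23), Pdk1, Pdp1 (12.9 ± 1.78) and Pdk3. Neighbours in this order overlapped between libraries, except Pdhb and Dlat, Dlat and Pdk1, and Pdp1 and Pdk3. By group means, Pdk4 and Pdk2 led in tumor mice, followed by Mpc1 (170 ± 20.6) and Pdha1 (119 ± 39.6), then Mpc2 (72.8 ± 10.2) and Pdhb (71.8 ± 11.7), whose values overlapped. In tumor library 4 Pdk4 (84.6) was below Pdk2 (231), Mpc1 (195) and Pdha1 (85.3), and Pdk2 lay above Mpc1 in all 4 tumor libraries.

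Pdk4, the kinase that responds to fasting, spread widely among tumor mice. It stood at 533, 861, 277 and 1010 CPM in control libraries 1 to 4 and at 1550, 2470, 1540 and 295 CPM in tumor libraries 1 to 4. Tumor libraries 1, 2 and 3 were above every control, and tumor library 4 was lower than all controls but library 3. On the log2 scale the difference was 1.13 ± 0.57 (SE, 95% interval -0.15 to 2.41), with an adjusted p of 0.193 (edgeR). Without tumor library 4 it was 1.46 with an adjusted p of 0.0388, and 1.44 with an adjusted p of 0.0372 without control library 4 and tumor libraries 2 and 4. Without tumor library 2 it was 0.72 with an adjusted p of 0.41.

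Pdk2, the other main muscle kinase, stood at 468, 509, 465 and 652 CPM in controls and at 593, 667, 635 and 519 CPM in tumor mice. Control library 4 lay among the tumor values. Its difference on the log2 scale was 0.21 ± 0.16 (SE, 95% interval -0.15 to 0.56, adjusted p = 0.385, edgeR), so a fall of the size seen for Dlat, Mpc2 or Pdhb lies outside this interval. Pdk1, a kinase known as a target of the hypoxia factor HIF1, ran from 64.6 to 118 CPM in controls and from 60.9 to 70 CPM in tumor mice. Its log2 fold change was -0.35 ± 0.18 (adjusted p = 0.204, edgeR). Pdk3 had only 3 to 27 counts per library, under 1 CPM throughout. Its log2 fold change of -0.54 ± 0.61 (adjusted p = 0.569, edgeR) has an interval from -1.91 to 0.83, so neither a change nor its absence was detectable at this depth.

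Pdk4 made up 40.7%, 50.6%, 26.6% and 48.1% of kinase transcripts per length in control libraries 1 to 4. In tumor libraries 1 to 4 it made up 61.7%, 69.5%, 59.9% and 25.8%. Tumor libraries 1, 2 and 3 exceeded every control and tumor library 4 was the lowest of all 8. Shares averaged 41.5% ± 10.8 among controls and 54.3% ± 19.4 among tumor mice (SD, two-sided exact permutation p = 0.343). Without tumor library 4, the only tumor library not above every control, the difference was 22.2 percentage points. The exact permutation p of 0.0286 is then the smallest that 3 against 4 allows, so it follows from leaving that library out. Leaving out any other library gave an exact permutation p from 0.343 to 0.6. The log2 ratio of Pdk4 to Pdk2 went from 0.21 ± 0.68 to 0.94 ± 1.20 (exact permutation p = 0.343, adjusted over the 4 ratios 0.457). Without tumor library 4 the difference was 1.31 (adjusted exact permutation p = 0.0381). With any other library left out the adjusted exact permutation p ran from 0.457 to 0.8.

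Kinase transcripts per Pdha1 transcript separated the groups in all libraries. The summed kinase level divided by that of Pdha1, both per length, was 1.9, 2.77, 1.79 and 2.2 in control libraries 1 to 4. It was 5.91, 5.86, 7.66 and 3.84 in tumor libraries 1 to 4. With Pdk4 left out of the sum, the ratio was 1.13, 1.37, 1.31 and 1.14 in controls and 2.26, 1.78, 3.07 and 2.85 in tumor mice. The groups did not overlap with or without Pdk4, and the mean went from 2.17 ± 0.437 to 5.82 ± 1.56 with it and from 1.24 ± 0.12 to 2.49 ± 0.583 without it (SD, n = 4). Tumor library 4, where Pdk4 was low, also had a low Pdha1 level. This ratio was chosen after its parts were seen, so it is a description with no test, and it counts transcripts and not protein or enzyme activity.

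**Figure D3:**
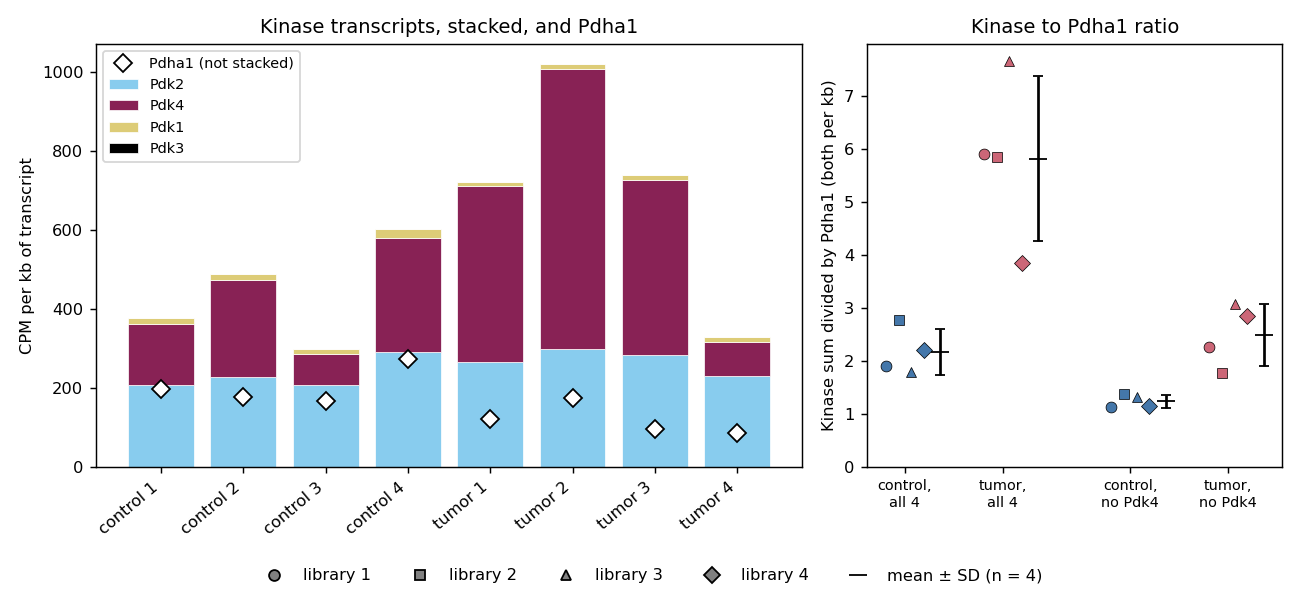
Left, the 4 kinase genes stacked and Pdha1 as a diamond, in CPM per kb of transcript, for each library. Right, the kinase sum divided by Pdha1 with and without Pdk4, with mean ± SD. The Pdha1 diamond lies at 85.3 to 174 in tumor libraries, and the ratio with Pdk4 runs from 3.84 to 7.66 in tumor libraries and from 1.79 to 2.77 in controls (without Pdk4, from 1.78 to 3.07 and from 1.13 to 1.37).

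Pdp1, the catalytic phosphatase subunit abundant in muscle, stood at 48.9, 47.4, 63.2 and 58 CPM in controls and at 50.3, 37.1, 38.1 and 73.2 CPM in tumor mice. Tumor libraries 2 and 3 were the lowest of all 8 and tumor library 4 the highest. The difference on the log2 scale was -0.13 ± 0.22 (95% interval -0.62 to 0.36, adjusted p = 0.71, edgeR). Per length, Pdp1 amounted to 2.29% to 5.03% of the kinase sum in controls and to 0.867%, 1.23% and 1.66% in tumor libraries 2, 3 and 1, with tumor library 4 at 5.32%.

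Of 5 other subunits and regulators of the complex 4 were tested, with a median log2 fold change of -0.50. By edgeR 0 rose and 1 fell, beside 8.73% of all genes lower. At an unadjusted p under 0.05, 0 rose and 3 fell, while DESeq2 called 0 higher and 2 lower and limma-voom 0 and 1. Pdhx, which binds E3 to the E2 core, fell from 65.4 ± 12.4 to 42.1 ± 9.14 CPM (SD, n = 4), or by -0.64 ± 0.18 (SE) on the log2 scale, with an edgeR adjusted p of 0.0359. That call was lost without any 1 of the 4 controls or of tumor libraries 1, 3 and 4 (adjusted p from 0.0503 to 0.11), and 3 genes of the list fell without tumor library 2. Dld, the E3 that the complex shares with other dehydrogenases, was singled out after its values were seen. It went from 224 ± 58.3 to 162 ± 33.2 CPM, or by -0.46 ± 0.20 on the log2 scale (adjusted p = 0.137), and passed without tumor library 2 (-0.65, adjusted p = 0.0488).

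Genes that supply the lipoyl arm of Dlat and the thiamine cofactor of E1 held 3 falls (4 at an unadjusted p under 0.05) among 12 tested of 13 listed, and 0 rises (also 0 at an unadjusted p under 0.05 and by DESeq2 and limma-voom). Of all genes tested 8.73% were lower and 11.0% higher, and the median log2 fold change of this list was -0.15. Ndufab1, the acyl carrier protein on which lipoate is built and also a subunit of complex I, stood at 121, 109, 97.4 and 146 CPM in controls and at 61.5, 69.7, 50.2 and 59 CPM in tumor mice. The groups were far apart, with a difference of -0.98 ± 0.16 on the log2 scale (adjusted p = 0.00484, edgeR). Glrx5, an iron-sulfur cluster protein, had -0.49 ± 0.13 (adjusted p = 0.0268), a call that leaving out control 1, 2 or 4 or tumor 3 ended (adjusted p from 0.0541 to 0.0895). Bola3, another iron-sulfur cluster protein needed for lipoate, fell by 0.49 ± 0.14 on the log2 scale (adjusted p = 0.0365), and leaving out control 1, 2 or 4 or tumor 1, 3 or 4 ended its call (adjusted p from 0.06 to 0.0834). The count of falls was 1 without each of control libraries 1, 2 and 4 and tumor library 3. The lipoyl synthase gene Lias, singled out after its values were seen, went from 31.4 ± 2.26 to 29 ± 1.05 CPM (log2 fold change -0.11 ± 0.10, adjusted p = 0.443).

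Genes that make pyruvate or lead it elsewhere held 2 falls and 0 rises among 18 tested (1 higher and 8 lower at an unadjusted p under 0.05, 8 lower by DESeq2, 4 lower and 0 higher by limma-voom), with a median log2 fold change of -0.54. By edgeR the share of falls was near that of all genes, of which 8.73% were lower and 11.0% higher. DESeq2 and limma-voom called 1728 and 1287 of all 14070 genes lower, so their 8 and 4 of 18 were larger shares. Ldha, which interconverts pyruvate and lactate, stood at 1990, 2040, 2300 and 1340 CPM in controls and at 1490, 442, 689 and 536 CPM in tumor mice. Tumor library 1 lay above control library 4, and the other tumor libraries lay below all controls. Its log2 fold change was -1.28 ± 0.37 (adjusted p = 0.0391, edgeR). Ldhd, the mitochondrial D-lactate dehydrogenase, had -1.12 ± 0.29 (adjusted p = 0.0261). Leaving out control 1, 2 or 3 or tumor 2, 3 or 4 ended the call of Ldha (adjusted p from 0.0579 to 0.111), and leaving out control 1 or 4 or tumor 1, 3 or 4 that of Ldhd (adjusted p from 0.056 to 0.0779). The count of falls was 0 without control library 1 or tumor library 3, 1 without control 2 or 3 or tumor 4, and 6 without tumor library 2.

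The sister complexes act on 2-oxoglutarate and branched-chain ketoacids and share the E3 subunit. By edgeR they held 1 fall and 0 rises among 9 tested, beside 8.73% of all genes lower. At an unadjusted p under 0.05, 0 were higher and 3 lower (0 and 3 by DESeq2, 0 and 2 by limma-voom). The median log2 fold change of the 9 was -0.12. The fall was that of Bckdk, the kinase that inhibits the branched-chain complex, from 152 ± 20.6 to 98.8 ± 20.9 CPM (log2 fold change -0.62 ± 0.17, adjusted p = 0.0319, edgeR). Leaving out control 1, 2 or 4 or tumor 3 or 4 ended this call and brought the count to 0 (adjusted p from 0.0541 to 0.102), and 3 genes of the list fell without tumor library 2.

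Of 14 transcription regulators known to act on Pdk genes, all tested, 2 rose and 2 fell, with a median log2 fold change of -0.02. These counts stand beside 11.0% higher and 8.73% lower among all genes tested. Esrra, an estrogen-related receptor that drives mitochondrial genes, fell from 96.2 ± 21.9 to 40.6 ± 5.51 CPM (log2 fold change -1.25 ± 0.17, adjusted p = 0.00358, edgeR), and its coactivator gene Ppargc1b had -1.07 ± 0.28 (adjusted p = 0.0293). Foxo3, a forkhead factor active in atrophy, rose from 27.2 ± 5.24 to 52 ± 18.7 CPM (log2 fold change 0.94 ± 0.25, adjusted p = 0.0305). Leaving out control 1 or 4 or tumor 1, 3 or 4 ended the call of Ppargc1b (adjusted p from 0.0504 to 0.0892), and leaving out control 1, 2 or 3 or tumor 2 or 3 that of Foxo3 (adjusted p from 0.0531 to 0.0955). Each of those 5 left-out libraries also brought the 2 rises to 0, and leaving out tumor library 4 made them 4. The 2 falls became 5 without tumor library 2, and 1 without control 1 or 4 or tumor 1, 3 or 4. DESeq2 called 3 higher and 2 lower, and limma-voom 1 and 2.

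Foxo1, the other gene that rose (log2 fold change 1.30 ± 0.41, adjusted p = 0.0495, edgeR), is named after its values were seen. Leaving out any 1 control or tumor library 2 or 3 ended its call (adjusted p from 0.0667 to 0.118), as did DESeq2 size factors, upper-quartile factors and limma-voom (0.0511, 0.0577 and 0.0955), and without tumor library 2 its log2 fold change was 0.66. Foxo1 stood at 17.9, 15.2, 18 and 18.1 CPM in controls and at 28.9, 86.3, 37.6 and 17.5 CPM in tumor mice. Foxo3 stood at 20.8, 25.2, 30 and 32.7 CPM in controls and at 47.9, 76.7, 52.1 and 31.3 CPM in tumor mice. Pdk4, Foxo1 and Foxo3 were each highest in tumor library 2 and within the control range in tumor library 4. Cebpb and Hif1a of the same list also had this pattern, with Cebpb at 88.7 and 36.7 CPM in tumor libraries 2 and 4. Among controls Foxo1 ran only from 15.2 to 18.1 CPM while Pdk4 ran from 277 to 1010 CPM. A link between these regulators and Pdk4 was not tested. Esrra was low in all 4 tumor libraries (35.5 to 45.4 CPM, controls 77.6 to 126). Adipocyte markers also summed to 746 CPM in tumor library 2 and to 36 to 57.5 in the other tumor libraries, and their part in the Pdk4 level was not tested. In controls that sum was highest in library 2 (849 CPM) and lowest in library 4 (17.3 CPM), where Pdk4 was at its control maximum.

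**Figure D4:**
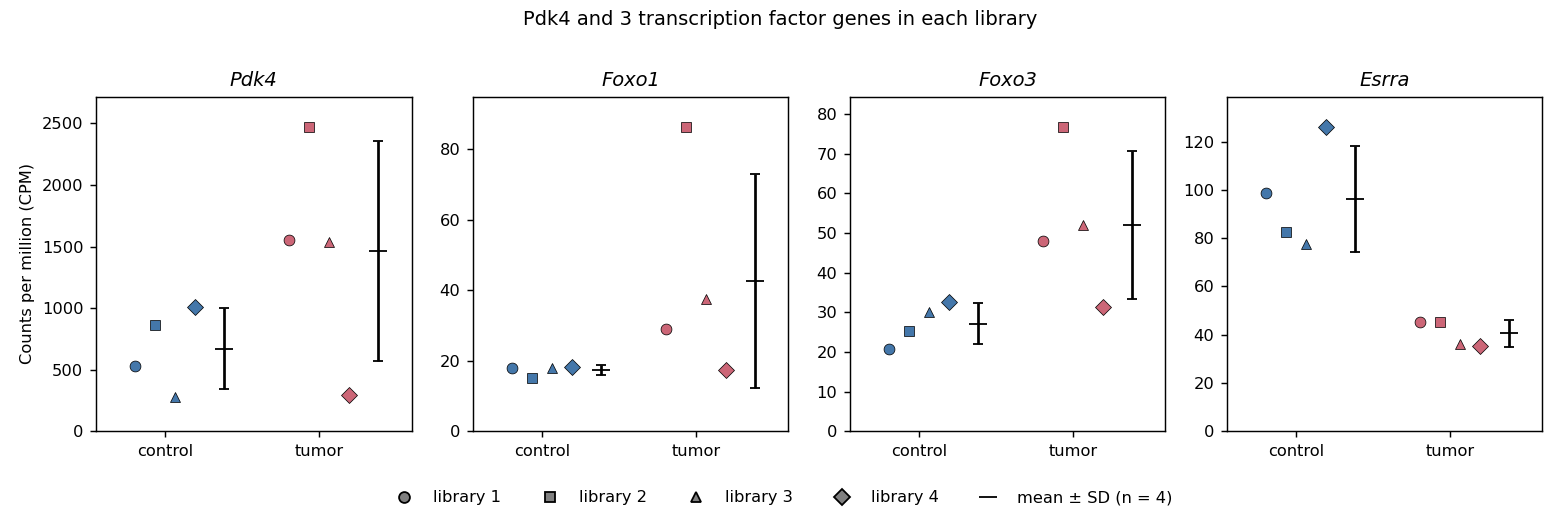
Level of Pdk4, Foxo1, Foxo3 and Esrra in CPM (vertical axes starting at 0) in 4 control and 4 tumor libraries, with mean ± SD. Tumor library 4 (diamond) lies within the control range for Pdk4, Foxo1 and Foxo3, and far below it for Esrra.

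The genes most like Pdk4 over the 8 libraries, among 10227 genes of at least 1 average log2 CPM, were Srcap (Pearson r = 0.961), Gpx3 (0.957), Polr3gl (0.956), Casc3 (0.954) and Patl1 (0.952). They shared the low value in tumor library 4, as for the antioxidant enzyme gene Gpx3 at 465, 643, 326 and 148 CPM in tumor libraries 1 to 4. None of the 5 passed the test between groups. The genes most like Dlat were Uqcrh (r = 0.999), Cox7a2 (0.996), Mpc2 (0.994), Atp5o (0.994) and Cox5a (0.994). Besides the carrier gene Mpc2 these encode respiratory chain and ATP synthase subunits, with log2 fold changes from -1.06 to -0.74. These coefficients describe 8 libraries that share the group difference and its scaling, and carry no p.

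**Figure D5:**
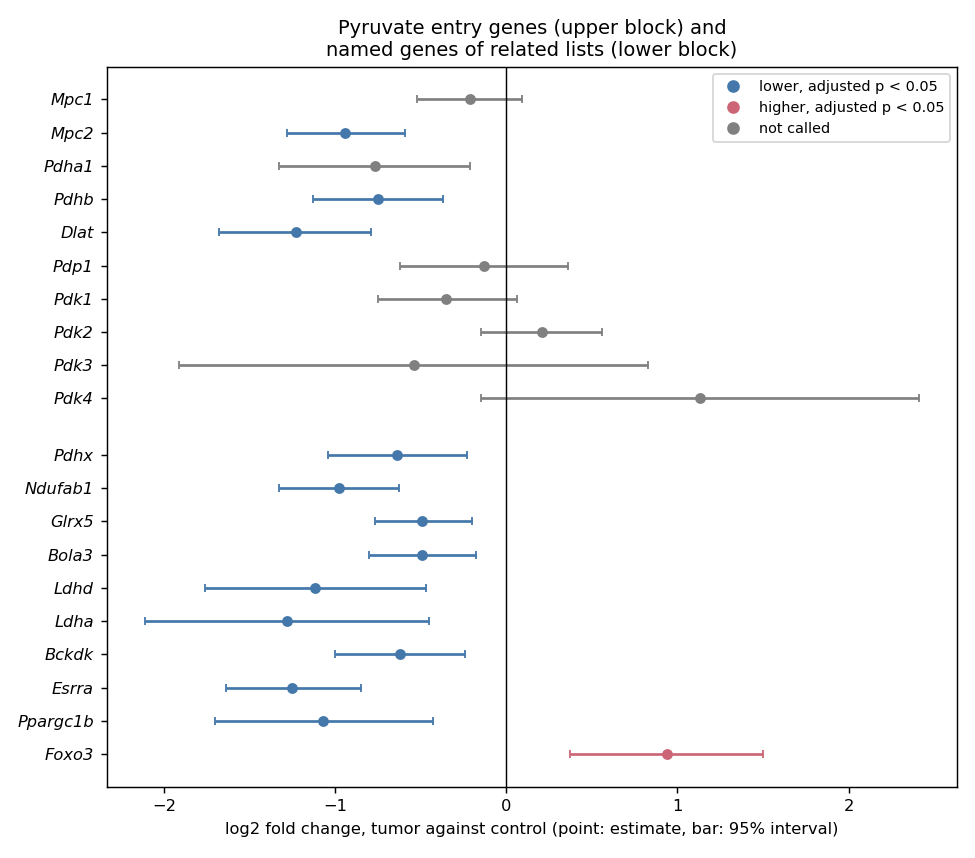
Log2 fold change of tumor against control (horizontal axis) with 95% interval for the 10 pyruvate entry genes and for named genes of the related lists. Blue and red mark genes that fell and rose at an adjusted p under 0.05, and the intervals of Pdk2 and Mpc1 lie above the point of Dlat.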

How the data were processed

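Messenger RNA of quadriceps muscle from 4 control and 4 tumor mice was sequenced, and groups and replicate numbers were taken from the sample labels. The authors deposited 1 table of estimated counts per gene, not normalized, with 9% of values not whole. The submitters' processing notes list Salmon 1.10.1, STAR 2.7.9a, Trim Galore 0.6.7, cutadapt 3.4 and R 4.2.2, and genome build GRCm39. Not given in the sources used here: their roles, the annotation, the strand setting and sequencing batches. Estimated counts share reads that match several genes among them.

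The counts were rounded, filtered with filterByExpr (minimum count 10, 14070 genes, 99.92% of counts), scaled by TMM and tested with the edgeR quasi-likelihood test (edgeR 4.0.16, R 4.3.3), two-sided, with Benjamini-Hochberg adjustment over all genes and a threshold of 0.05. SEs are the log2 fold change over the square root of F. Ratios within a library used CPM + 0.5 and a two-sided exact permutation test. Reads are counted at 28436205 to 36139462 per library, which leaves genes of a few counts imprecise. Steps were tested on simulated data. Alternatives were DESeq2 1.42.0, limma-voom (limma 3.58.1), other scalings and filters, a replicate block, a fibre covariate (the log2 ratio of Myh4 to Myh1, Myh2 and Myh7) and left-out libraries.

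The 10 genes and all lists were chosen with earlier results of these data known. Named genes were all 10 genes, up to 3 called genes with the smallest p of each pathway list (2 where none was called), and the 5 genes most correlated with Pdk4 and with Dlat. Promoters come from RefSeq (GRCm38.p6) and transcript lengths from GENCODE M21, matched by symbol, and neither build is that of the counts. Protein sequences were not used here, and 1 gene was taken out of the lists and is not reported here.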

Additional observations from a re-analysis of the deposited data

Results flagged for a closer look

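Pdk3 made up 0.112% of kinase transcripts per length in tumor library 4, against 0.00646% to 0.0226% in the other tumor libraries, a gap larger than 4 values usually show (Dixon's test). It rests on 27 counts there and on 3, 5 and 11 counts in tumor libraries 1, 2 and 3. Of 66 groups of 4 values examined this was the only such flag, where chance gives about 5% of groups.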

How the results depend on the processing

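Across 18 alternatives, the calls of Dlat and Mpc2 held in all, and Pdk1, Pdk2, Pdk3 (17 alternatives), Pdp1 and Mpc1 were called in none. Pdha1 was called with upper-quartile factors (log2 fold change -0.85), no count filter (-0.78), a strict filter (-0.79), DESeq2 (-0.78), limma-voom (-0.80), without tumor 2 (-1.04), without control 4 and tumor 2 (-0.84) and without these and tumor 4 (-0.75). The last fit, added after seeing the data, also called Pdk4 (1.44), which made 1 gene higher. With 1 library left out, log2 fold changes ran from -1.04 to -0.59 for Pdha1, -0.84 to -0.62 for Pdhb and 0.72 to 1.46 for Pdk4, with 0 to 1 genes called higher. Differences in log2 ratio ran from 0.41 to 1.31 for Pdk4 to Pdk2. They ran from 0.56 to 0.80 for Mpc1 to Mpc2 and from -0.48 to -0.34 for Dlat to Pdha1. Without tumor library 4 each had an exact permutation p of 0.0381 adjusted over the 4 ratios. For Mpc1 to Mpc2 and Dlat to Pdha1 the unadjusted p was already the smallest possible with all 8 libraries. Their adjusted p fell only because Pdk4 to Pdk2 then joined them at a small p, so passing says nothing more about them. The replicate block and 3 against 3 libraries cannot pass in the exact test, so they say nothing about these ratios. The Pdk4 share difference ran from 7.67 to 22.2 points. The log2 difference in kinase sum to Pdha1 was 1.40, and 0.98 with Pdk4 left out. Leaving out 1 library gave 1110 to 2845 called genes in all (2781 with all 8). Upper-quartile scaling moved the median of all genes by -0.07 and gave 1169 higher and 1547 lower genes, against 1552 and 1229. The cause of these changes was not tested. The replicate numbers share only a number: same-numbered deviations correlated at 0.03, 0.13, 0.20 and 0.02, and controls 2 and 3 alone correlated best with their own number. With the replicate block 1932 genes were called (1014 higher), and Dlat, Mpc2 and Pdhb fell with log2 fold changes of -1.22, -0.93 and -0.75. Pathway list counts under the block were 0 for other subunits of the complex, 0 for the sister complexes, 4 for pyruvate routes and 0 for rising regulators. With the fibre covariate log2 fold changes were -1.06 for Dlat, -0.83 for Mpc2, -0.6 for Pdhb and -0.58 for Pdha1, each smaller in size than without it. That of Pdk4 was larger (1.42), and 3 of the 10 genes were called lower and 0 higher. Depth limits Pdk3 alone among the 10 genes.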

Other observations

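In tumor library 4 the 10 genes did not keep one order. Mpc2, Dlat and Pdha1 were lower there than in any other library (61.9, 54.2 and 243 CPM), while Pdhb (126 CPM) and Mpc1 (187 CPM) were the highest of the tumor libraries. Pdp1 was the highest of all 8 libraries (73.2 CPM) and Pdk4 (295 CPM) lay near the lowest control (277 CPM). Pdhb and Mpc1 are the genes whose estimated counts were not whole in all 8 libraries, and whether shared reads played a part was not tested.

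Ldhb, the lactate dehydrogenase subunit of oxidative fibres, was chosen after its values were seen. It went from 202 ± 245 CPM in controls to 34.8 ± 51.4 CPM in tumor mice (SD, n = 4), a log2 fold change of -2.54 ± 1.17 that did not pass (adjusted p = 0.154, edgeR), with an SD above the mean in each group. Control library 4 (560 CPM, other controls 15 to 148) and tumor library 2 (112 CPM, other tumor libraries 6.49 to 10.5), the libraries with the lowest Myh4 shares, carried the means.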
